A study of Sus scrofa with 14 samples.

Results

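In 14 samples of porcine pluripotent and embryo-derived cells, 22 of 19588 measured genes were high in both the lentiviral line grown in F (Lv-piPSC-F) and the episomal lines grown in FL6i (Epi-piPSC-FL6i), and low in the other 5 groups. The genes were selected on the measured values themselves: a mean of at least 40 normalized counts in each of the 2 groups and a mean below 15 in each of the others. Their height in these 2 groups is therefore a description and was not tested. Of the 22 members, 13 carried a gene symbol and 9 were known by an Ensembl identifier alone. Normalized counts are read counts divided by 1 size factor per sample, so they compare a gene between samples but not genes of unequal length with each other.

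Each group held 2 samples. Lv-piPSC-F were induced pluripotent stem cells made with lentiviral reprogramming genes and kept in F, a medium with FGF2. Both samples carried the line name ID6, and the second, at passage 46, also carried the code M1690-A-3. Epi-piPSC-FL6i were made from porcine fetal fibroblasts with episomal plasmids that carry human POU5F1, SOX2, KLF4, LIN28 and L-MYC and a p53 shRNA, and were grown in FL6i, which contains FGF2, LIF and inhibitors of p38, JNK, TGFB, GSK3, MEK and BMP signalling. They were lines C10 at passage 12 and C11 at passage 11. Epi-piPSC-FLB2i was a single line, B5, made with the same plasmids and sampled at passages 9 and 12 in FLB2i (FGF2, LIF, BMP4 and inhibitors of GSK3 and TGFB). The remaining groups came from blastocysts without reprogramming genes: primary outgrowths of the inner cell mass (pESCLC-primary), lines A1 and A2 in F at passage 2 (pESCLC-F), line B1 in FLB2i at passages 3 and 6 (pESCLC-FLB2i), and line C2 in FL6i at passages 3 and 9 (pESCLC-FL6i). Cells for the last 2 groups entered FL6i on day 8, and those of pESCLC-FLB2i went on to FLB2i on day 18. The cell lines and outgrowths were held on mouse feeder cells. Lv-piPSC-F and Epi-piPSC-FL6i thus shared neither the vector nor the medium, whereas Epi-piPSC-FLB2i shared its vector with one of them and pESCLC-FL6i shared its medium.

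Several properties of the libraries accompany the results. Depth ran from 6193659 reads on genes in pESCLC-FL6i 2 to 58878377 in Lv-piPSC-F 2, and the other 12 samples lay between these. The 2 measured Y-linked genes of a list of 11 were highest in the same 2 groups as the members, but were not low in every other group. KDM5D, a histone demethylase, had 321 and 214 normalized counts in Lv-piPSC-F beside 242 and 181 in Epi-piPSC-FL6i, 68.9 in pESCLC-primary 1, 26.2 in pESCLC-FL6i 2 and at most 3.14 in the other 8 samples. EIF1AY, a translation initiation factor with an X-linked copy that can share reads, had 526 and 863 in Lv-piPSC-F beside 577 and 548 in Epi-piPSC-FL6i, 269.5 in pESCLC-primary 1, 86.5 in pESCLC-FL6i 2 and at most 15.7 elsewhere. Of 8 pluripotency markers, 3 could be matched (NANOG, LIN28A and DNMT3B), and POU5F1 and SOX2 were not among them. Their sum was 44812 to 55154 in Lv-piPSC-F and 25298 to 29489 in Epi-piPSC-FL6i, against 217 to 7984 in the other groups. DNMT3B made up most of it in these 2 groups, with 35581 and 47300 in Lv-piPSC-F and 15249 and 18038 in Epi-piPSC-FL6i. None of the 3 was at 0 in both samples of any group. NANOG went the other way in Epi-piPSC-FL6i, at 0.97 and 1.00, beside means of 11.8 to 632 in all other groups, Lv-piPSC-F included. Fibroblast markers, 7 of 9 matched, separated samples of the same group: their sum was 226 in Lv-piPSC-F 1 and 20673 in Lv-piPSC-F 2. It was 866 and 289408 in the 2 pESCLC-FL6i samples, and 1854 and 40852 in the 2 of pESCLC-FLB2i. The Epi-piPSC-FL6i samples lay closer together, at 11310 and 14741. The part of Y-linked RNA, depth, fibroblast RNA or feeder reads in the members' pattern was not tested. In such bulk RNA, fewer cells of a type and less RNA per cell cannot be told apart.

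Induced pluripotent cells are somatic cells returned by a few transcription factors to a state able to form all tissues of the body. Culture signals hold such cells in a naive or a primed form: LIF and kinase inhibitors are used for the first, FGF2 and activin signals for the second. By their known roles, the members with a symbol are a mixed set. They comprise enzymes of steroid and lipid metabolism (HSD17B6, CYP4B1, HACD4), signalling and ion transport proteins (MAP3K15, TESC, KCNK13), immune ligands and receptors (IL16, IL12RB2), a homeobox factor (TLX2), a ubiquitin ligase (TRIM50), a sperm head protein (CYLC1), a lipid-binding protein of the BPI fold (BPIFB6) and a membrane protein of little known function (TMEM171).

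The sequences before the genes' starts were compared first, because the rule did not use them. For 11 of the 13 members with a symbol, RefSeq gave a gene start on Sscrofa11.1, and the window from 250 bases before to 50 bases after that start was read for them and for 13163 genes in all. The 6 windows shown are those of the 3 members with GC box letters, of TMEM171 with an E-box and an AP-1 site, and of CYLC1 and TRIM50, which were close to silent outside the 2 groups. Capitals mark any of the 6 motifs searched on either strand: the octamer ATGCAAAT, the TATA box TATAAA, the E-box CACGTG, the cAMP response element TGACGTCA, the AP-1 site TGACTCA and the GC box GGGCGG, read as CCGCCC on the other strand.
TESC, chr14:35381649-35381948, plus strand: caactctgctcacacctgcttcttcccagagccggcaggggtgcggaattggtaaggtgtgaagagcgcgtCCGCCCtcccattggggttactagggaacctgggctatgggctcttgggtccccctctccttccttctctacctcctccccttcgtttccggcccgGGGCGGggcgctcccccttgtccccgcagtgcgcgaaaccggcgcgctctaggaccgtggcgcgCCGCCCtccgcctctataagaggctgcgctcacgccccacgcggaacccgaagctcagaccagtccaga
KCNK13, chr7:111866221-111866520, plus strand: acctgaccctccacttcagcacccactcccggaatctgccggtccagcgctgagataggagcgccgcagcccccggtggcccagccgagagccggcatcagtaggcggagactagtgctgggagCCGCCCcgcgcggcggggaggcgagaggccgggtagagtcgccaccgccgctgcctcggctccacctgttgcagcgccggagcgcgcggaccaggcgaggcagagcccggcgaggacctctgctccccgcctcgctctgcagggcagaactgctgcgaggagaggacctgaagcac
MAP3K15, chrX:15867328-15867627, minus strand: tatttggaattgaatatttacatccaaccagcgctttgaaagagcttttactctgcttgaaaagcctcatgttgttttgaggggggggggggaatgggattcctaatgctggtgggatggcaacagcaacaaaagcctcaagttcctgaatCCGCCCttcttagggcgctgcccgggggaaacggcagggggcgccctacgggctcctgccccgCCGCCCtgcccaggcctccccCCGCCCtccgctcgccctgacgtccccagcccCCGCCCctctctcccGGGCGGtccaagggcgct
TMEM171, chr2:82286961-82287260, plus strand: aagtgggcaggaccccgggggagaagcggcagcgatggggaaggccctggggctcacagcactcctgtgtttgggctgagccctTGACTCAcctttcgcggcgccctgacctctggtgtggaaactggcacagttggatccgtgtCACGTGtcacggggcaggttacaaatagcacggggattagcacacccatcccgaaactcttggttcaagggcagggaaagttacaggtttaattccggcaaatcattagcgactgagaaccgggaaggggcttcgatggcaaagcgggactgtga
CYLC1, chrX:66974875-66975174, plus strand: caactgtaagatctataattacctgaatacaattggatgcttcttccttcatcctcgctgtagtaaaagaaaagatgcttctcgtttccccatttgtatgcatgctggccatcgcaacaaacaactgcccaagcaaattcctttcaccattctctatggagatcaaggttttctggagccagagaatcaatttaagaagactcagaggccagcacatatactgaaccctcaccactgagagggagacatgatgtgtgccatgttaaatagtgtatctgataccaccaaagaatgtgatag
TRIM50, chr3:10655296-10655595, minus strand: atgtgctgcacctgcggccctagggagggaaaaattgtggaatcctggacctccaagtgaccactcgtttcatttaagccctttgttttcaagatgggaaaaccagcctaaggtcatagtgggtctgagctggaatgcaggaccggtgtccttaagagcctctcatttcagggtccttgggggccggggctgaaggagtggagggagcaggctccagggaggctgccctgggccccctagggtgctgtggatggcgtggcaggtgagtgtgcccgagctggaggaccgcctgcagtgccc

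GC box letters stood in 3 of the 11 members' windows (27.3%) and in 7829 of all 13163 (59.5%). MAP3K15 held 5 of them, TESC 3 and KCNK13 1. The E-box stood in 2 windows (18.2%, all genes 8.82%), those of TMEM171 and HACD4, and the AP-1 site in that of TMEM171 alone (9.09%, all genes 3.08%). The TATA box letters were found in 1 member (9.09%, all genes 8.55%), IL12RB2, whose window held them 5 times within a stretch of 19% G and C. Neither the octamer, to which POU factors bind, nor the cAMP response element was in any of the 11 (all genes 1.18% and 2.70%). No motif was thus common to the members, and no match says only that these letters are not in this window.

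The windows were poorer in CpG than those of all genes. The ratio of observed to expected CpG had a median of 0.379 over the 11 members, from 0.0602 in TLX2 to 0.805 in TESC, and a median of 0.726 over all genes, with quartiles of 0.437 and 0.896. A ratio above 0.6, a usual limit for a CpG island, was reached by 3 members (27.3%), TESC, KCNK13 and TMEM171, and by 63.6% of all windows. CYLC1 (0.233), TRIM50 (0.271) and IL16 (0.224) lay at the low end. With 11 windows these figures are a description, and the starts are those of RefSeq models, some of which begin at the coding sequence.

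**Figure D1:**
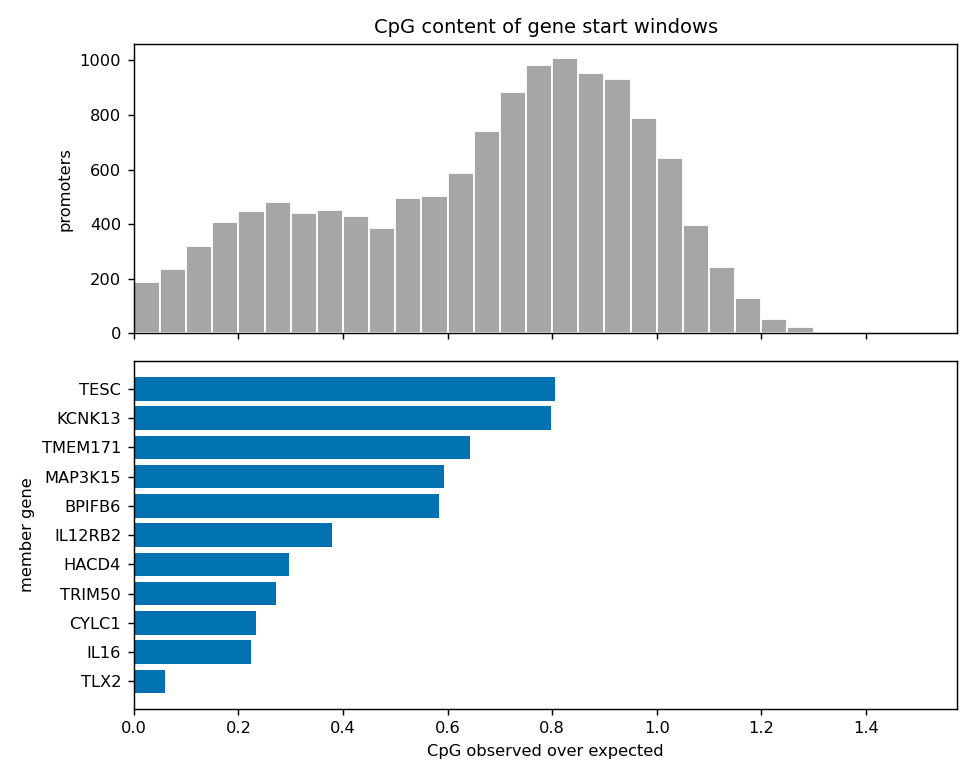
The upper panel counts windows of 300 bases at the starts of all placed genes (y axis) by their ratio of observed to expected CpG (x axis), and the lower panel gives the same ratio for each of the 11 placed members as a bar from 0. Only TESC and KCNK13 among the members reach the main peak of the upper panel near 0.8.

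The rule set group means, and the single samples are described here with no test, since they are the values that made those means. In 20 of the 22 members, the lowest of the 4 samples of the 2 groups lay above the highest of the 10 others; the exceptions were MAP3K15 and ENSSSCG00000039178, each through a single sample of Lv-piPSC-F. Over all 19588 genes, 1385 (7.07%) had their samples apart in this way. In the 10 other samples, 92 of 220 values were 0, and 11 members were at 0 in 5 or more of these samples. The rule was met by every single sample, and not just by the group means, in 9 members. The group means ran from 46.5 to 2127 in Lv-piPSC-F, with a median of 81.2, and from 41.7 to 723 in Epi-piPSC-FL6i, with a median of 73.5.

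**Figure D2:**
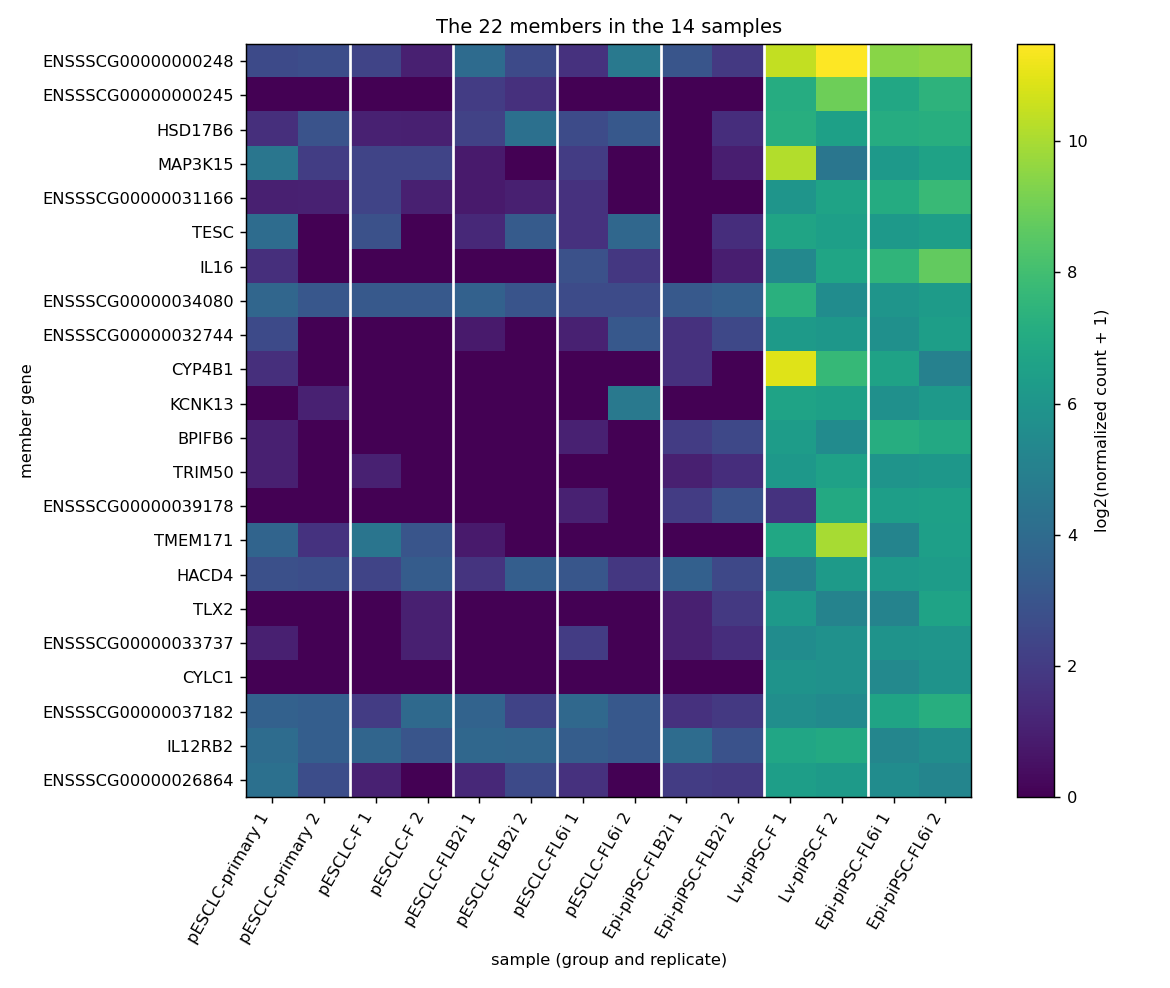
Colour gives log2(normalized count + 1) for each of the 22 members (rows, ordered by the lower of their 2 group means) in each of the 14 samples (columns, with white lines between groups). The 4 columns at the right, Lv-piPSC-F and Epi-piPSC-FL6i, are bright in nearly every row, with MAP3K15 in Lv-piPSC-F 2 and ENSSSCG00000039178 in Lv-piPSC-F 1 as the dark cells.

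By mean normalized count, not corrected for length, the highest member in each of the 2 groups was ENSSSCG00000000248, a gene without a symbol. It had 1396 and 2857 normalized counts in Lv-piPSC-F and 690.3 and 756 in Epi-piPSC-FL6i, and 1.01 to 23.6, with a median of 4.92, in the other 10 samples. No sample of the 2 groups came near the rest, and this gene alone made up 23.3% to 48.4% of the summed counts of the 22 members in the 4 samples. ENSSSCG00000000245 came second by the lower of the 2 group means, with 139 and 489 in Lv-piPSC-F beside 119 and 173 in Epi-piPSC-FL6i, and 8 of the 10 others at 0 (highest 3.08). The remaining 7 genes without a symbol had values between 2.20 and 221 in the 4 samples. The one at 2.20, ENSSSCG00000039178, is singled out after its values were seen: it had 2.20 and 123 in the 2 Lv-piPSC-F samples, 85.0 and 89.9 in Epi-piPSC-FL6i, and 0 to 6.46 elsewhere, so that Lv-piPSC-F 1 fell among the low samples.

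Among the metabolic enzymes, HSD17B6 was the most even. This short-chain dehydrogenase acts on androgens and retinoids, and it had 144 and 92.3 normalized counts in Lv-piPSC-F and 139 and 146 in Epi-piPSC-FL6i. The other 10 samples had 0 to 17.7, with a median of 2.91, the highest being pESCLC-FLB2i 2. Of its 9 measured relatives in the hydroxysteroid 17-beta dehydrogenase family, none met the rule. HSD17B4, HSD17B12, HSD17B7, HSD17B8, HSD17B10, HSD17B11 and HSD17B1 were above 100 in all 7 groups, and HSD17B2 had means of 2441 in Epi-piPSC-FL6i, 188 in pESCLC-F and at most 13.4 in the rest.

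CYP4B1, a cytochrome P450 that oxidises fatty acids and foreign compounds, varied more between the duplicates. The counts were 1908 and 207 in Lv-piPSC-F beside 97.5 and 32.0 in Epi-piPSC-FL6i, and 0 in 8 of the 10 other samples, with 2.07 as the highest. The samples of the 2 groups stayed apart from the others although they spanned a wide range themselves. CYP4F22, another family member and no member of the set, had means of 27.7 in Lv-piPSC-F, 10.3 in Epi-piPSC-FL6i and at most 3.93 in the other groups. HACD4, a dehydratase of very-long-chain fatty acid synthesis, had 30.8 and 75.9, and 73.4 and 79.9, against 2.31 to 10.3 elsewhere, while its relatives HACD1, HACD2 and HACD3 had means of 94.7 to 2499.8 in every group.

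The signalling and transport members fell into an even and an uneven kind. TESC, a calcium-binding regulator of the sodium-proton exchanger first known from embryonic testis, had 105 and 88.8 in Lv-piPSC-F and 70.5 and 84.9 in Epi-piPSC-FL6i, with 0 to 15.7 and a median of 1.97 in the other 10 samples. KCNK13, a potassium channel with 2 pore domains, had 100.1 and 89.8, and 54.1 and 73.9, and 0 in 8 of the other 10 samples. Its only value above 1.09 outside the 2 groups was 23.6 in pESCLC-FL6i 2, the library with the fewest reads, in which 1 read stands for 2.62 normalized counts. Of 12 other measured channels of this family, KCNK1 (means of 850.1 and 658, highest elsewhere 460.5) and KCNK5 (501 and 545, highest elsewhere 521) were also present in both groups, but not in them alone.

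MAP3K15, a stress-activated kinase that responds to osmotic change, was the most uneven of the members with a symbol. It had 1142 and 21.6 normalized counts in the 2 Lv-piPSC-F samples, 71.4 and 96.9 in Epi-piPSC-FL6i, and 0 to 21.6 elsewhere, with a median of 2.03. Lv-piPSC-F 2 lay just below pESCLC-primary 1, so the groups overlapped. The related kinases did not share the pattern: MAP3K5 had means of 22.5 and 21.7 in the 2 groups and 40.5 to 299 in the others, and MAP3K6 had 237 in Lv-piPSC-F, 46.2 in Epi-piPSC-FL6i and 27.3 to 139 in the others.

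Of the immune members, IL16, a cytokine that binds CD4, had 39.6 and 107 in Lv-piPSC-F and 179.6 and 428 in Epi-piPSC-FL6i. The other 10 samples had at most 6.29 and 6 of them were at 0. Its receptor gene CD4 had means of at most 2.62 in all 7 groups. IL12RB2, the signalling chain of the interleukin 12 receptor, had 110.0 and 126 in Lv-piPSC-F and 37.7 and 48.9 in Epi-piPSC-FL6i, on a low but steady level of 6.46 to 15.7, with none at 0, elsewhere. The partner chain IL12RB1 had means of at most 2.56 and the cytokine subunit IL12B of at most 0.696 in any group. STAT4, which carries the signal of this receptor, had 13.2 and 91.9 in the 2 Lv-piPSC-F samples and 4.83 and 11.99 in Epi-piPSC-FL6i, whereas the kinases JAK2 and TYK2 had means of at least 272 in all groups.

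BPIFB6, of a family of lipid-binding proteins, had 81.4 and 45.95 in Lv-piPSC-F and 141 and 119.9 in Epi-piPSC-FL6i, with at most 4.61 in the other 10 samples, 6 of them at 0. Of 9 measured relatives, BPIFB1 was present in Lv-piPSC-F alone of these 2 groups (256 and 86.0, against 0 and 2.00), and BPI had a mean of 201 in Epi-piPSC-FLB2i and at most 8.12 in the other groups. The members TRIM50, TLX2 and CYLC1 are given here after their values were seen, for their low background. TRIM50, a ubiquitin ligase of the stomach, had 68.2 and 94.3, and 59.9 and 65.9, with at most 1.84 elsewhere. TLX2, a homeobox factor of the enteric nervous system, had 70.4 and 33.8, and 33.8 and 101, with at most 2.77 elsewhere, while its relative TLX3 had means of 254 and 351 in pESCLC-FLB2i and pESCLC-FL6i and of at most 1.48 in the 2 groups.

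CYLC1 encodes cylicin, a protein of the sperm head, and lies on the X chromosome. It was the member with the cleanest contrast: 58.3 and 55.4 in Lv-piPSC-F beside 41.5 and 57.9 in Epi-piPSC-FL6i, and 0 reads in all 10 other samples. A count of 0 allows up to 3 reads in a library, which is 7.86 normalized counts in the shallowest of the 14, and this limit covers counting error only. The other sperm head genes did not follow it, with CCIN at 20.9 and 11.5 in Lv-piPSC-F but 0 and 0.999 in Epi-piPSC-FL6i, and ACTRT1 at 2.02 or less in every sample.

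**Figure D3:**
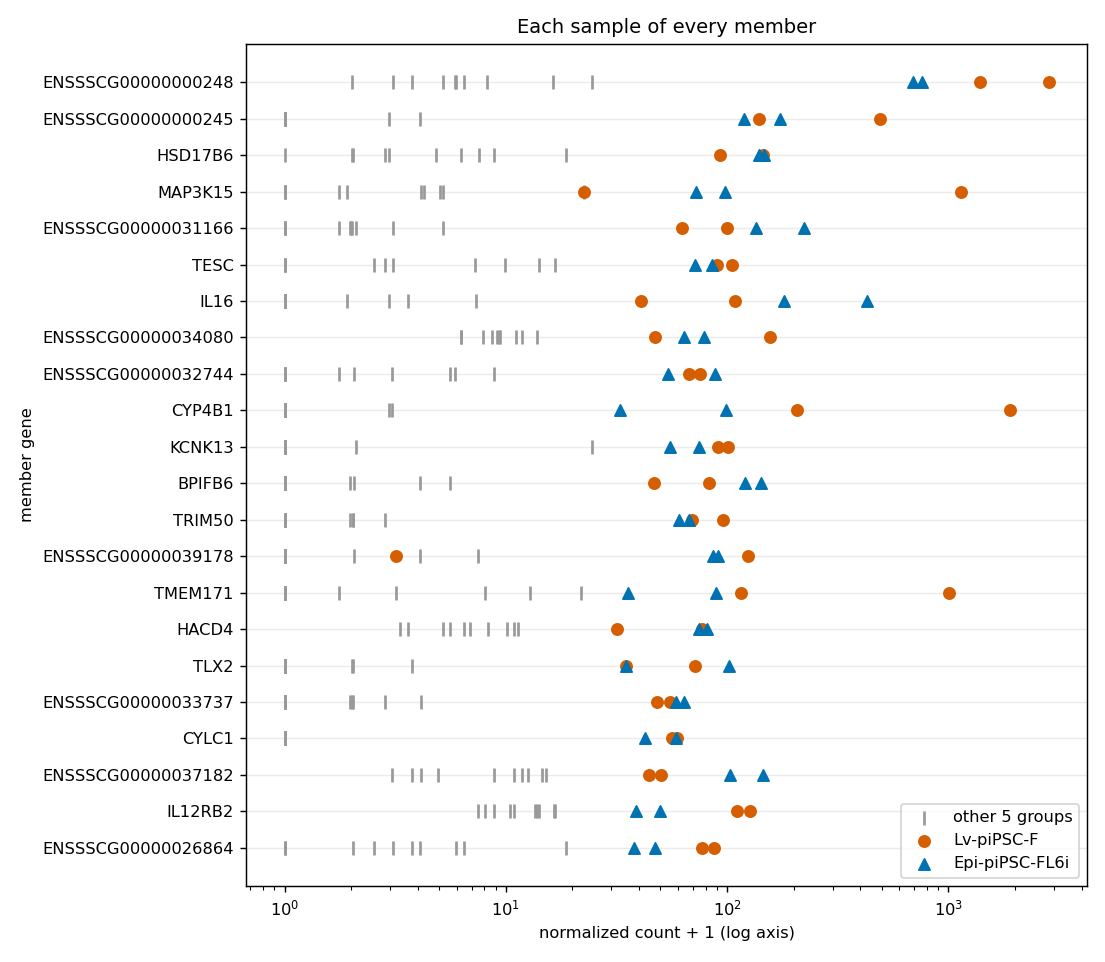
Each row is a member and each mark a sample, at its normalized count plus 1 on a log axis: circles for Lv-piPSC-F, triangles for Epi-piPSC-FL6i and grey bars for the 10 samples of the other 5 groups. Circles and triangles lie to the right of the grey bars except for 1 circle each of MAP3K15, at the upper edge of its bars, and ENSSSCG00000039178, among its bars.

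Levels of different genes can be set side by side only per length. Per kilobase of the longest RefSeq transcript, the mean normalized count in Lv-piPSC-F was highest for TMEM171 (423) and MAP3K15 (122), the 2 placed members with the most unequal duplicates, and lowest for TESC (6.88). In Epi-piPSC-FL6i the same scale put IL16 first (63.1), followed by BPIFB6 (49.1), TMEM171 (46.3) and TRIM50 (43.1), and IL12RB2 last (4.26). The transcripts of TESC (14043 bases) and IL12RB2 (10167 bases) were the longest among the placed members. Reads were counted on Ensembl genes and lengths taken from RefSeq, so these ranks depend on the gene models.

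The thresholds drew a line through a continuum. The member closest to 40 was ENSSSCG00000026864, with a mean of 41.7 in Epi-piPSC-FL6i (46.3 and 37.0), and the nearest gene outside was NEK10, a kinase, with 38.2 in Lv-piPSC-F (52.8 and 23.7) and 121 and 86.9 in Epi-piPSC-FL6i. Closest to 15 was TMEM171, with a mean of 14.01 in pESCLC-F (20.9 and 7.08); it had 114 and 1009 in Lv-piPSC-F and 34.8 and 87.9 in Epi-piPSC-FL6i. The nearest gene outside was CDKN2A, the locus of inhibitors of the cell cycle, with 112 and 221 in Lv-piPSC-F beside 128 and 74.9 in Epi-piPSC-FL6i, 32.5 in pESCLC-FLB2i 2 and at most 6.28 in the other 9 samples. At thresholds of 20 and 15 the rule took 42 genes, and at 80 and 15 it took 5.

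The same rule was applied to all 21 pairs of groups, as a description. It took from 0 to 103 genes, with a median of 2, and 22 was the third highest number. More genes were shared by pESCLC-FLB2i and pESCLC-FL6i (103) and by pESCLC-primary and pESCLC-F (84). All of these groups came from blastocysts, but the other pairs among them shared 0 or 1 gene. Epi-piPSC-FLB2i, which had the plasmids of Epi-piPSC-FL6i, shared 1 gene with it and 2 with Lv-piPSC-F. pESCLC-FL6i, which had its medium, shared 10 with each of Epi-piPSC-FL6i and Lv-piPSC-F, and pESCLC-F shared 2 with Lv-piPSC-F.

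**Figure D4:**
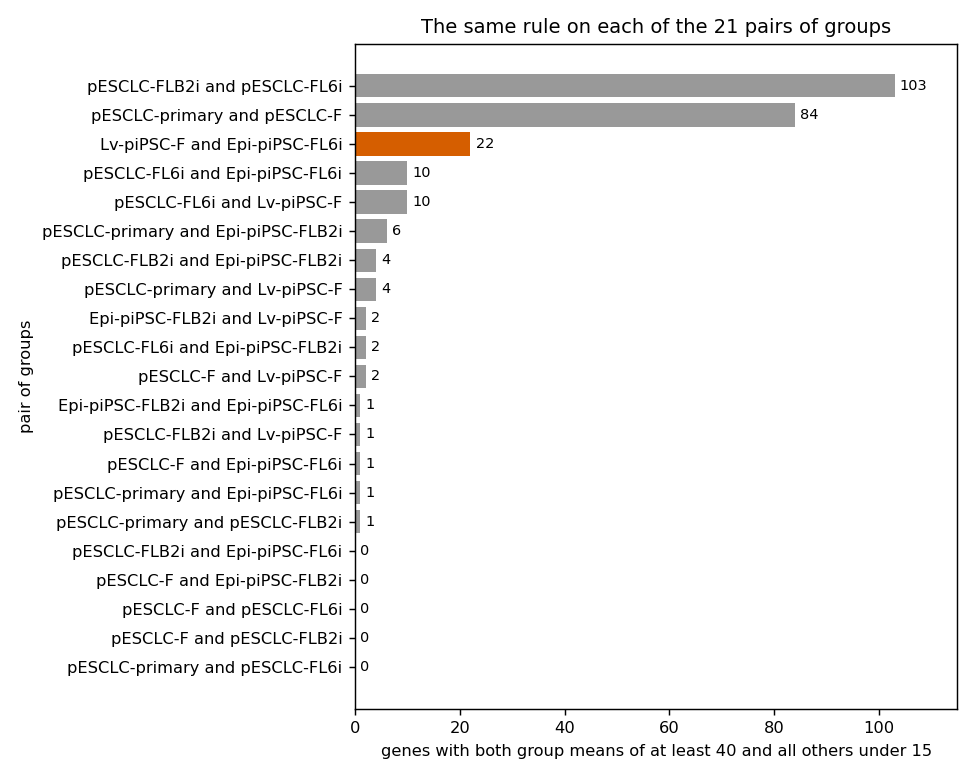
Bars from 0 count the genes (x axis) with a mean of at least 40 in both groups of a pair (y axis) and below 15 in the other 5. The orange bar, Lv-piPSC-F and Epi-piPSC-FL6i, stands at 22, below 2 pairs of embryo-derived groups at 84 and 103 and above the other 18 pairs, which hold 0 to 10.

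Outside the 2 groups, the summed counts of the 22 members were 54.6 to 132 per sample, against 5983 and 5901 in Lv-piPSC-F and 2385 and 3072 in Epi-piPSC-FL6i. The highest sums among the 10 others were 132 in pESCLC-primary 1 and 102 in pESCLC-FL6i 2, which were also the only 2 of the 10 in which KDM5D was above 3.14. In the remaining 8 samples the sum was 54.6 to 72.9. In pESCLC-primary 1, MAP3K15, ENSSSCG00000026864, TESC and IL12RB2 stood at 21.6, 17.7, 15.7 and 15.7. In pESCLC-FL6i 2, KCNK13 and ENSSSCG00000000248 stood at 23.6 each, few reads in a library where 1 read stands for 2.62 normalized counts. The part of Y-linked RNA in these values was not tested.

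Next, Lv-piPSC-F was compared with Epi-piPSC-FL6i, to ask whether the members differed in level between the vectors and media. The rule did not compare these groups, but it asked for a mean of at least 40 in both. Genes near 0 in 1 of them could not be members, although they count in the shares over all genes. The members' calls and those shares are therefore not alike, and the selection partly fixes the gap between them. The test was limma on log2(normalized count + 1) over the 4 samples, with a call at a p of 0.05 or less after Benjamini-Hochberg adjustment and a fold change of 3 or more. All 22 members passed the filter on low values, which their selection already ensures, so they were taken whole. Between these groups the vector, the medium and the line cannot be told apart. None of the members was called, while 968 of 13988 genes tested (6.92%) were called higher in Epi-piPSC-FL6i and 828 (5.92%) higher in Lv-piPSC-F. At an unadjusted p under 0.05 there were 5 members, and 6178 genes (44.2%) in all. DESeq2 on the recovered reads called 3 members, IL16 as higher in Epi-piPSC-FL6i and CYP4B1 and TMEM171 as higher in Lv-piPSC-F; over all 13988 genes it called 1112 (7.95%) and 1108 (7.92%) in these directions. With edgeR, 0 members were called, against 941 genes (6.73%) higher in Epi-piPSC-FL6i and 770 (5.5%) higher in Lv-piPSC-F.

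The members without a call were not all close to equal. The median size of the log2 difference was 0.895 over the members and 0.639 over all genes tested, and the median standard error was 0.412 and 0.255. A difference beyond 3-fold was estimated for 4 of the 22 members, CYP4B1, TMEM171, IL16 and ENSSSCG00000039178, and for 20.6% of all genes. The duplicates of Lv-piPSC-F differed by over 2-fold in 10 members, with a median ratio of 1.69, and those of Epi-piPSC-FL6i in 4, with a median ratio of 1.33. The mean was higher in Lv-piPSC-F for 13 members and in Epi-piPSC-FL6i for 9.

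Toward Lv-piPSC-F, IL12RB2 was nearest to a call. Its log2 difference, Epi-piPSC-FL6i minus Lv-piPSC-F, was -1.43 ± 0.35 (SE) with a limma adjusted p of 0.049, and the fold of 2.70 missed the limit of 3. ENSSSCG00000000248 followed with -1.47 ± 0.37 and an adjusted p of 0.051. CYP4B1 (-3.47 ± 1.23, adjusted p = 0.104) and TMEM171 (-2.60 ± 1.18, adjusted p = 0.168) had the widest differences and wide errors, as 1 Lv-piPSC-F sample was over 8 times the other in each. Toward Epi-piPSC-FL6i, IL16 stood at 2.07 ± 0.69 (adjusted p = 0.091) and ENSSSCG00000037182 at 1.37 ± 0.37 (adjusted p = 0.058). MAP3K15 had -0.93 ± 1.95, and the sign turned to 1.90 without Lv-piPSC-F 1.

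The log2 difference was smaller than its standard error in several members. It was 0.30 ± 0.34 for HSD17B6, -0.31 ± 0.33 for TESC, -0.35 ± 0.36 for TRIM50, -0.21 ± 0.39 for CYLC1 and -0.05 ± 0.41 for ENSSSCG00000032744. With 2 samples a group, these errors do not show that the levels were the same.

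**Figure D5:**
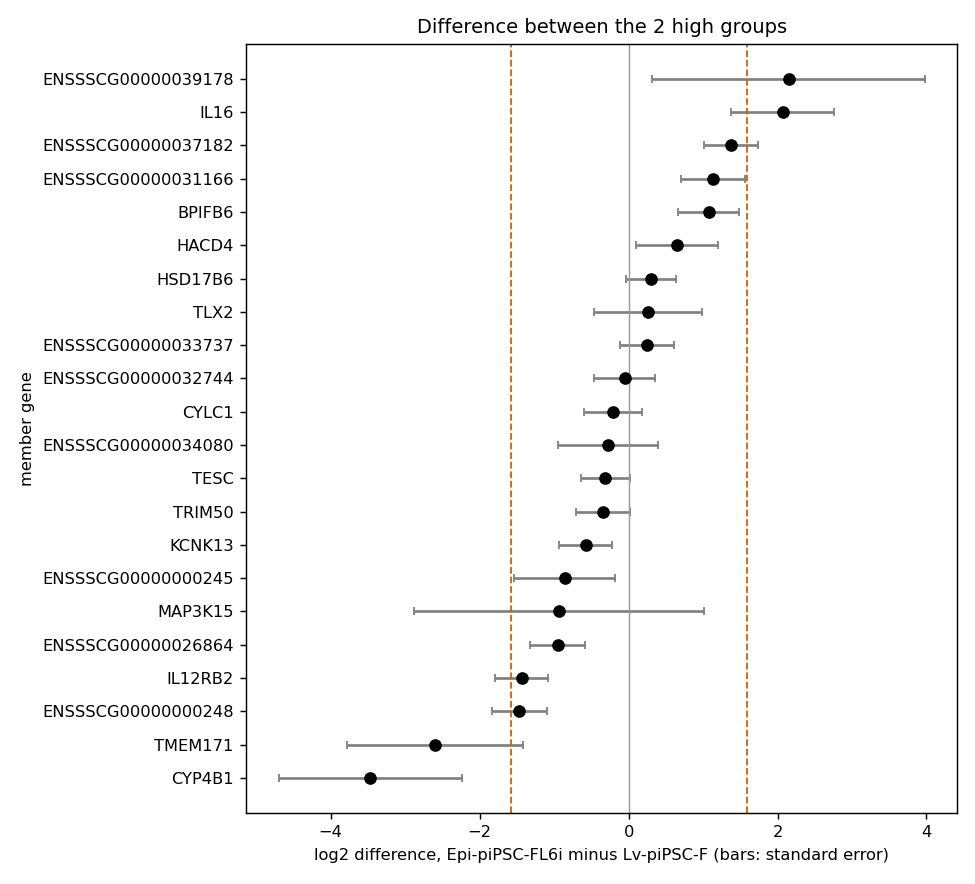
Points give the log2 difference of Epi-piPSC-FL6i minus Lv-piPSC-F for each of the 22 members (x axis), with bars of 1 standard error from limma and dashed lines at a 3-fold difference. CYP4B1 and TMEM171 lie beyond the left line and IL16 and ENSSSCG00000039178 beyond the right one, MAP3K15 has the longest bar, and no member was called.

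The genome positions of the 11 placed members were scattered. They lay on 8 chromosomes, and no pair of these 11 had starts within 200 kb of each other. The other members, among them the 2 with the highest lower group means, ENSSSCG00000000248 and ENSSSCG00000000245, could not be placed. Whether any of those lie close together is therefore not known here. Of the 11, 2 were on X, MAP3K15 (chrX:15716898-15867377) and CYLC1 (chrX:66975125-67090165), and 3.44% of all placed genes were on X. For each placed member, the nearest placed and tested gene on either side was taken, 22 genes, and none was itself a member. In the comparison of the 2 groups with the other 5 (limma over all 14 samples, the mean of the 2 group means minus the mean of the 5), 971 of 16028 genes tested were called higher (6.06%), all 22 members among them by the rule, and 1926 called lower (12.02%).

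Among the 22 neighbours, 1 was called higher and 2 lower, and their median log2 difference was 0.56, against -0.07 over all genes tested. The neighbours were drawn only from the 12102 genes both placed and tested, so these medians are of unlike sets. The neighbour called higher was CEMIP, a hyaluronan-binding protein, 181 kb from IL16, with a log2 difference of 2.98 and an adjusted p of 0.037. It had 80.3 and 70.0 in Lv-piPSC-F and 234 and 205 in Epi-piPSC-FL6i but also 584 in pESCLC-FL6i 2, so that its groups overlapped, and the call was lost when any 1 of 11 of the 14 samples was left out. BPIFA3, near BPIFB6, and POU3F4, a brain factor near CYLC1, were called lower from low levels, with 8.77 and 15.2, and 15.3 and 89.6, as means in pESCLC-FLB2i and pESCLC-FL6i and at most 1.38 elsewhere. Both calls were absent with DESeq2 and edgeR.

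Neighbours that overlap a member matter for the counting. MAP3K15 overlapped PDHA1, a subunit of pyruvate dehydrogenase, and TESC overlapped FBXW8 in the RefSeq models. PDHA1 had means of 3000.5 to 3862 in the other 5 groups, 9452 in Lv-piPSC-F, 5033 in Epi-piPSC-FL6i, and its 2 Lv-piPSC-F samples, at 9478 and 9426, were alike where MAP3K15 differed. FBXW8 had means of 195 to 655 in all groups, with 361 and 406 in the 2. Next to TRIM50, the RNA methyltransferase gene NSUN5 had 1046 and 481 in the 2 groups and 258 to 401 in the others, a log2 difference of 1.18 that was under the 3-fold limit. DQX1, 1.31 kb from TLX2, had 197 and 6.27 in the 2 Lv-piPSC-F samples and 5.24 to 28.8 in the others.

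The genes outside the set that were most like it were ranked by Pearson's r between their log2 values and the members' mean profile over the 14 samples, among 16006 genes, as a description. First came LIPH, a phospholipase that makes lysophosphatidic acid, with r = 0.986. It had 1126 and 873 in Lv-piPSC-F and 673 and 922 in Epi-piPSC-FL6i, and 10.5 to 30.4 in the other 10 samples, so that the samples did not overlap, and it missed the set through means of 15.2 to 25.05 in 4 of the other 5 groups. MIP, the lens water channel aquaporin 0 (r = 0.973), had 71.5 and 38.3, and 15.4 and 50.9, with at most 0.985 elsewhere, and missed it through a mean of 33.2 in Epi-piPSC-FL6i. SPPL2C, an intramembrane protease of germ cells (r = 0.961), had 33.0 and 13.2, and 33.8 and 73.9, with at most 1.54 elsewhere.

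Of the 10 genes ranked highest, 5 had means of at least 397 in every group, and these differed in degree rather than in presence. ABCF2, a protein of the ATP-binding cassette family, had means of 1719 and 1902 in the 2 groups and 796 to 902 in the others. NOC4L, a factor of ribosome assembly, had 1983 and 2060.3, and 418 to 658. LEO1, a part of the PAF1 complex of transcription elongation, had 1278 and 1276, and 446 to 531, and GARS1, the glycine tRNA synthetase, had 7557 and 5546, and 2646 to 2940.4. The fifth was ENSSSCG00000039635, with 1473 and 1212, and 397 to 594. The 4 high samples share their libraries and size factors in all these genes, and no p is given.

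The state of the cells around these members was described with lists of pluripotency, lineage and pathway genes, none of which contains a member. In the comparison of the 2 groups with the other 5, read against 6.06% called higher and 12.02% called lower, 4 of 8 core pluripotency genes were higher and 1 lower. DNMT3B, the methyltransferase of early embryonic cells, had means of 41441 in Lv-piPSC-F, 16644 in Epi-piPSC-FL6i and 775 to 2242 in the others (log2 difference 4.50, adjusted p = 1.6e-05). LIN28A, an RNA-binding protein of stem cells whose human form LIN28 was on the plasmids, had 7910.0 and 10748, and 11.5 to 5386 in the others (4.95, adjusted p = 0.00066). PRDM14 was called on Lv-piPSC-F alone, with 163 and 257 there and 0 in both Epi-piPSC-FL6i samples, which shows that a call in this comparison need not be shared by the 2 groups.

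Among 14 naive pluripotency genes tested, 6 were higher and 2 lower. Of the 6, PRDM14 and 3 others were high in Lv-piPSC-F alone of the 2 groups: DPPA5 had means of 82.6 and 0.50, FGF4 of 23.4 and 0.50, and NR0B1 of 44.0 and 5.41. ESRRB, an orphan nuclear receptor, had means of 236 and 3116 in the 2 groups and 6.62 to 60.03 in the others (5.15, adjusted p = 8.2e-06), whereas SOCS3, the feedback inhibitor of LIF signalling, had 74.2 and 298, and 523 to 1841 in the others (-2.77, adjusted p = 6.8e-05). Of 15 primed genes, 5 were higher and 4 lower, but none of the 5 had both means above those of all other groups. OTX2 had means of 2279 and 2075 in the 2 groups, 4066 in pESCLC-primary, 5784 in pESCLC-F and at most 51.7 in the rest, and NODAL had 153 and 477, then 4114, 7105 and at most 3.75. The comparison averages log2 values over the 5 groups, so groups near 0 weigh heavily in it. Over all 17 lists, with a gene in 2 lists counted in each, 16 of 38 higher calls had both means above those of the other 5 groups. That count set no minimum level, so it includes genes close to 0 in Epi-piPSC-FL6i. Examples are FGF4, at 0.50 there against 0 in the other groups, and NR0B1, at 5.41 against 4.46 in pESCLC-FL6i. The germline list had 3 of 16 higher and 5 lower. TDRD1, a protein of the piRNA pathway, came near to the members, with means of 42.7 in Lv-piPSC-F, 19.9 in Epi-piPSC-FL6i and 0 in all 10 other samples, and TFAP2C, a germ cell and trophoblast factor, had 561 and 1348, and 1.01 to 220.1 in the others.

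Genes of differentiated lineages were mostly lower or not called. The primitive endoderm list had 1 of 14 higher and 9 lower, mesoderm 0 of 16 and 7, neurectoderm 2 of 14 and 7, trophectoderm 2 of 12 and 3, and fibroblast 0 of 16 and 2. HNF4A, an endoderm factor, had means of 0.550 and 2.95 in the 2 groups and of 1.75 to 9.91 in the 3 other groups from FLB2i or FL6i, so that its lower call rested on 8073 in pESCLC-primary and 14229.7 in pESCLC-F. In the pathway lists, 1 WNT gene of 26 was higher and 9 were lower, 4 of 36 TGFB and BMP genes were higher and 11 lower, 0 of 17 Notch genes were higher and 5 lower, 2 of 14 LIF and JAK genes were higher and 3 lower, and 3 of 21 FGF and ERK genes were higher and 2 lower. Of 17 imprinted genes, 2 were higher and 6 lower. The list of DNA methylation and demethylation had 14 genes, of which 13 were matched and 11 tested. DNMT3B alone was higher and none of the 11 was lower. TET2, which the paper describes as lower in these 2 groups, was not matched, so its level was not seen here.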

How the data were processed

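Polyadenylated RNA of 14 samples in 7 groups was sequenced in pairs of reads with a stranded kit. The authors used TopHat 2.1.0 for alignment to Sscrofa11.1, HTSeq with its default options for gene counts and DESeq2 for normalization; which release of the annotation they used is not given in the sources used here. The deposited signal values are these normalized counts, for 19588 Ensembl genes. All values (100%) were whole multiples of what 1 read is worth, which gave back 6193659 to 58878377 reads per sample. Since the strand setting is not stated beyond the default, counts of overlapping and antisense genes, and of genes with near-identical copies, are uncertain.

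Group means of normalized counts selected the members, and each group of 2 samples was taken from the sample labels. Members and gene lists were chosen with earlier results of these data known. The rule named, with their values, the members with a symbol among the 12 with the highest lower group mean, the 2 leading ones without a symbol and those at the thresholds; other members and list genes were named after their values were seen. Beside them stand the 10 genes most like the set and up to 3 called genes a list. Symbols came from a reference table that matched 14151 genes (72.2%) and 13 members (59.1%). Positions and sequences were taken from RefSeq on the same build, by symbol. Nothing in the labels says that the 2 samples of a group were separate cultures throughout, and 4 groups, Lv-piPSC-F among them, hold 1 line each, so p-values measure the spread between these samples.

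Tests used limma 3.58.1 in R 4.3.3, with its trend option, on log2(normalized count + 1), over genes that reached 10 normalized counts in 2 or more samples of the fit. They are two-sided with Benjamini-Hochberg adjustment over all genes, and fold changes on this scale understate the change of low genes. DESeq2 1.42.0 and edgeR 4.0.16 on the recovered reads, pseudocounts of 0.1 and 5, no filter and a minimum of 50, a log2 fold change of at least 3, a block for the replicate number, 1 fit of all 14 samples, and each sample left out were the alternatives.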

Additional observations from a re-analysis of the deposited data

How the results depend on the processing

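The number of members, 22, moved with the thresholds: it was 42 at 20 and 15, 5 at 80 and 15, 11 at 40 and 5, 50 at 40 and 30, and 9 when every sample had to meet the rule. Scaling to library size took the same 22 genes, and leaving out 1 sample took 18 to 27. Of Epi-piPSC-FL6i against Lv-piPSC-F, 1796 genes were called in all, 806 at a log2 fold change of at least 3, and 0 to 2813 with 1 sample left out; the 0 arose without either Epi-piPSC-FL6i sample, and 2813 without Lv-piPSC-F 2. Members called higher in Epi-piPSC-FL6i, 0 in the fit reported, numbered 1 with DESeq2 and 0 to 2 with 1 sample left out. Those called higher in Lv-piPSC-F, also 0, numbered 2 with DESeq2, 1 with all 14 samples in 1 fit and 0 to 4 with 1 sample left out. MAP3K15 changed sign, to 1.90, without Lv-piPSC-F 1, which holds the higher of its 2 values, and stood at -3.76 without Lv-piPSC-F 2. Against the other 5 groups, 2897 genes were called, and 794 at a log2 fold change of at least 3. The 1 neighbour called higher became 0 at that limit and 0 to 1 with 1 sample left out (without Lv-piPSC-F 2 the 1 was DQX1 in place of CEMIP). The 2 neighbours called lower became 0 with DESeq2, edgeR, a pseudocount of 5 or that limit, 1 with a pseudocount of 0.1 or a minimum of 50, and 0 to 2 with 1 sample left out. The cause was not tested in these cases.

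With the replicate number as a block, 1522 genes differed by the same call for Epi-piPSC-FL6i against Lv-piPSC-F, with 1 member higher in Epi-piPSC-FL6i and 2 higher in Lv-piPSC-F, and 2912 against the other 5 groups. Across genes, samples with equal numbers deviated from their group means with a correlation of 0.072 in these 2 groups. Over all 21 pairs of groups it was 0.36 for pESCLC-FLB2i and pESCLC-FL6i and -0.075 to 0.072 for the other 20, so the numbers were taken not to pair the samples.

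In the shallowest library, pESCLC-FL6i 2, 3 reads stand for 7.86 normalized counts, so values under this are not distinguishable from 0 there.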
